A study of Homo sapiens with 26 samples.

Results

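The loci described here are those of 10 genes of striated muscle: ACTA1, NEB, TTN, DES, MYOD1, MYH7, MYH1, MYH2, RYR1 and CKM. Their bins were taken by position, as every 100 kb bin (hg19) that overlaps one of these genes. The list of genes itself was chosen with earlier results of these data known. MYH1 and MYH2 lie side by side and share 1 locus, so the 10 genes make 9 loci. These loci hold 17 of the 26331 bins that carried a value and were above 0 in at least 1 cell. All of their bins met this. Each locus was set against the bins within 1 Mb on each side in the same cell, 20 flank bins for each locus and 180 in all.

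The products of these genes build and run the contractile machinery of skeletal and heart muscle. In the sarcomere, myosin motors (MYH1, MYH2, MYH7) pull on thin filaments made of actin (ACTA1) and lined by nebulin (NEB), while titin (TTN) spans the sarcomere as a spring. Desmin (DES) ties myofibrils together, the ryanodine receptor (RYR1) releases calcium, muscle creatine kinase (CKM) buffers ATP, and MYOD1 is a transcription factor that can turn other cells into muscle. Such lineage genes are usually silent in blood cells, and silent genes are commonly found in less accessible chromatin. RNA was not measured here, so their expression in these cells was not checked.

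The measurement was single-cell DamID. Unfused Dam, a bacterial methyltransferase, marks the adenine of GATC where it reaches chromatin, and the marked sites are cut by DpnI and amplified. Whether a promoter can be cut at all therefore depends on its GATC sites, and the 3 promoters of these genes that hold one are printed here. RefSeq's promoter table (GRCh38.p14, from 250 bases before to 50 bases after the start of the gene) held 7 of the 10 genes. GATC, a palindrome that reads the same on both strands, was found in 3 of the 7, against 41.7% of all 35116 promoters in that table. NEB (chr2:151734427-151734726, minus strand) has it at -94 and -52 from the start, TTN (chr2:178807374-178807673, minus strand) at -39 and MYH2 (chr17:10549609-10549908, minus strand) at -224. The promoters of ACTA1, MYH1, RYR1 and CKM have none in this window. The sequences run from the 5′ to the 3′ end of the gene's strand, with GATC in capitals.
NEB: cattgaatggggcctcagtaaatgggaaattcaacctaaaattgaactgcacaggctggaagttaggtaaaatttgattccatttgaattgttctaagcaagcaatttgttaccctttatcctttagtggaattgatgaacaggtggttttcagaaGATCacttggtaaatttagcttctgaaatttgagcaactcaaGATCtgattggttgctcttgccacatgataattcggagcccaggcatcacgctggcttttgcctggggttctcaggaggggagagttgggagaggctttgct
TTN: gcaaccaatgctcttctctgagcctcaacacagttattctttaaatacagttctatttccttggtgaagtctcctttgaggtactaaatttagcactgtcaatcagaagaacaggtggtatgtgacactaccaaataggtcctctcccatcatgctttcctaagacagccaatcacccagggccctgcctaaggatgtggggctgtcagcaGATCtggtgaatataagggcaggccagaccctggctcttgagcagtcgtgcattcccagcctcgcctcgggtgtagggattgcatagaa
MYH2: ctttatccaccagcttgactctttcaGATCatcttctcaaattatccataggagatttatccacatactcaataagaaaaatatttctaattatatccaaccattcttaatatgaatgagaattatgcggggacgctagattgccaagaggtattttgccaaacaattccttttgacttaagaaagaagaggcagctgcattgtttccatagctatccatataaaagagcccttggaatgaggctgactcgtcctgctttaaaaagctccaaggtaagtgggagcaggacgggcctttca

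A promoter is a very small part of a 100 kb bin, and the values below are for whole bins. All 26 samples are single KBM7 cells, a human leukaemia line with a nearly haploid genome, from clone 5-8, labelled 1N and Dam alone. The series title instead gives lamin B1, part of the mesh under the nuclear envelope, and a Dam fusion to it would mark contact with that mesh. The labels of all 26 cells were followed here, and which construct the cells carried was not tested. Shield1 at 0.5 nM for 15 h had induced Dam, and the smallest 2% of cells that carried both Fucci markers were sorted. They form 1 group from 1 clone. Cells of 1 clone are not replicate cultures, so each SD is a spread between these cells and no p-value was computed.

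The deposited ratio of observed over expected signal was divided by the mean of its cell, and this quotient is called the level: 1 is the average bin of that cell. Whole counts recovered from the ratios totalled 20182 to 178941 per cell, or 0.766 to 6.80 per bin. A bin in 1 cell is therefore often 0 by counting alone. For this reason counts were also summed over the 26 cells and divided by the summed expectation, which gives a summed level with an exact 95% Poisson interval. The ratio of a locus to its flanks by summed counts has an exact 95% binomial interval. All these intervals cover counting error only, and PCR copies without molecular identifiers are not independent molecules. The 9 loci held 1074 counts in all.

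The 9 loci did not share 1 level. CKM had the highest, 1.88 ± 1.22 (SD, n = 26 cells), followed by DES at 1.40 ± 1.26, RYR1 at 1.18 ± 0.809, MYOD1 at 0.987 ± 1.00 and MYH7 at 0.939 ± 0.645. Below these lay TTN at 0.738 ± 0.356, ACTA1 at 0.734 ± 0.798, NEB at 0.715 ± 0.500 and MYH1/MYH2 at 0.555 ± 0.583. Among all windows of the same number of bins, these levels ran from the 28.6th percentile for MYH1/MYH2 to the 89.2nd for CKM. Of the 17 bins, 7 lay below the median bin of the genome, which had a level of 0.793.

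No neighbours in this order differed beyond their spread. The largest of those differences, CKM minus DES, was 0.480 ± 1.78 with 12 cells on each side and 2 ties. The ends of the order, CKM and MYH1/MYH2, differed by 1.33 ± 1.42, less than the SD of that difference, with CKM higher in 22 of 26 cells. CKM and RYR1 lie on chromosome 19, whose mean level was 1.65, CKM above that mean and RYR1 below it. The MYH1/MYH2 locus was below the mean of chromosome 17, 1.47.

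**Figure D1:**
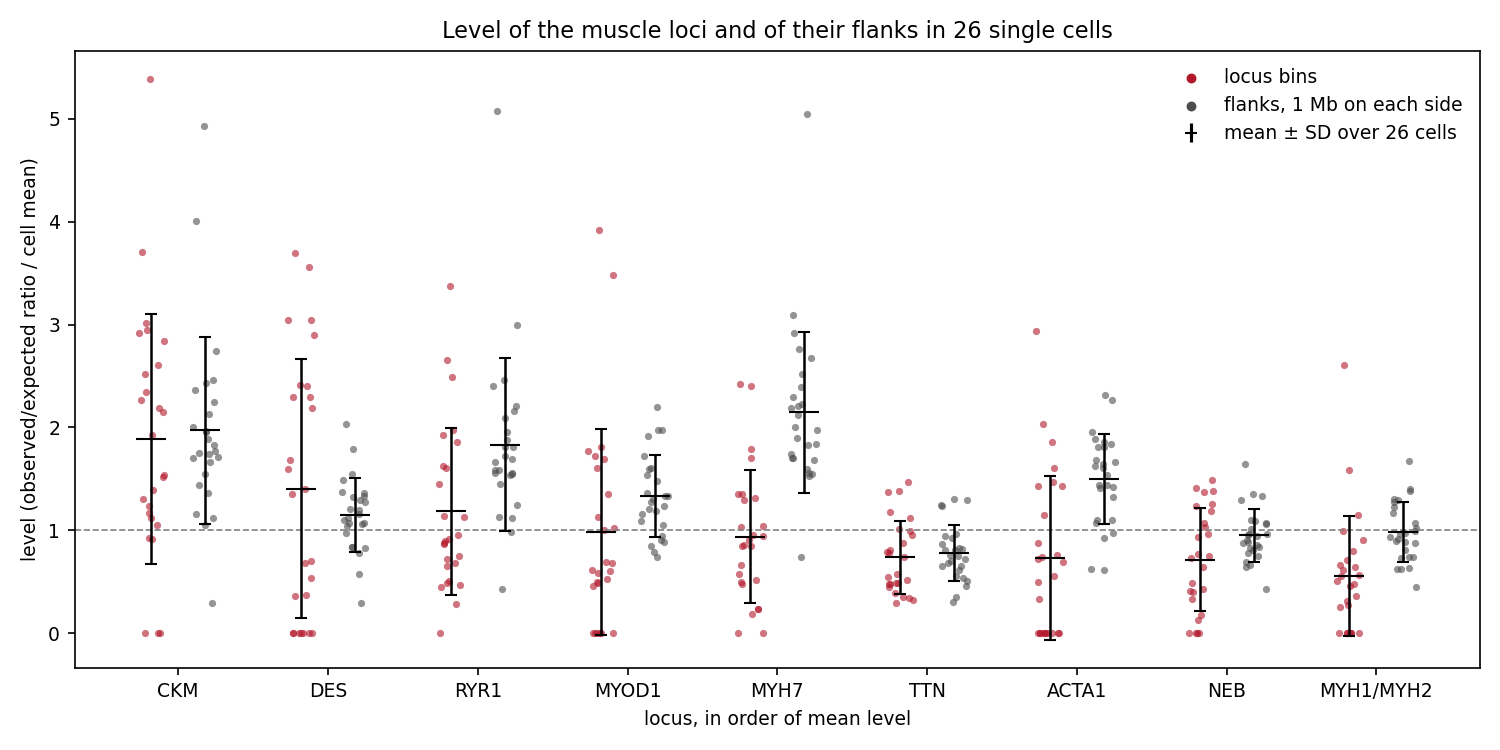
Level (observed over expected ratio divided by the cell mean) of each muscle locus, red, and of its flanks within 1 Mb on each side, grey, with 1 point per cell and bars for mean ± SD over 26 cells. MYH7 and ACTA1 sit below their flanks in 25 and 22 cells, while DES and CKM overlap theirs.

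Against their own flanks, 8 of the 9 loci had a lower mean level and 1, DES, a higher one. Below or above is used of a locus as a whole where it held in 21 cells or more (80% of 26). By this limit 2 loci were below their flanks, MYH7 in 25 cells and ACTA1 in 22, and none was above. ACTA1 was no longer below with flanks of 2 Mb (20 cells, log2 ratio -0.82) or with the median of the flank bins (19 cells, -0.64). Of all windows of the lengths of these loci, 16.7% were below and 4.98% above, so with these flanks 2 of 9 (22.2%) is close to the background. With flanks of 0.5 Mb 4 of 9 loci were below, MYH1/MYH2 and RYR1 being added, against 11.1% of windows. Without the 6 cells of lowest total the limit is 16 of 20 cells, and 4 loci were below, with TTN and RYR1 added. The share of windows below in that setting was not computed. For windows of 1, 2, 3 and 4 bins the share below was 16.6%, 16.1%, 17.2% and 18.6%, and the share above was 2.80%, 5.44%, 7.74% and 9.56%. With a limit of 18 cells 5 loci were below, against 39.4% of windows, and with a limit of 23 cells MYH7 alone, against 6.24%. MYH1/MYH2 and RYR1 each missed the limit by 1 cell, with 20 below. With 1 cell left out the limit falls to 20 of 25. Either locus then comes in whenever the cell left out had it above its flanks, so this outcome was fixed in advance. Any 1 of cells 1, 6, 9, 15, 16 and 26 left out brought 1 of them in and gave 3 loci. Cell 17, 19 or 22 left out brought in both and gave 4.

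The median log2 ratio of locus to flank was -0.44 over the 9 loci and -0.14 over all windows of these lengths. Over all 1-bin windows the median number of cells below the flanks was 17, and 59.5% had a log2 ratio below 0. Averaged over the 9 loci with equal weight, the level was 1.02 ± 0.311 and that of the flanks 1.41 ± 0.3. The difference, -0.391 ± 0.348, was below 0 in 23 of 26 cells. It ran from -1.11 in cell 10 to 0.397 in cell 16, with a median of -0.362. This call was lost with flanks of 2 Mb (19 cells), with the median of the flank bins (16 cells) and with every cell thinned to 20000 counts (20 cells). The largest differences that enter the mean were -1.21 at MYH7 and -0.765 at ACTA1, and DES alone was above 0, at 0.252. The share of other sets of 9 windows whose mean is below its flanks in as many cells was not computed. Whether the call is particular to the muscle loci was therefore not tested.

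**Figure D2:**
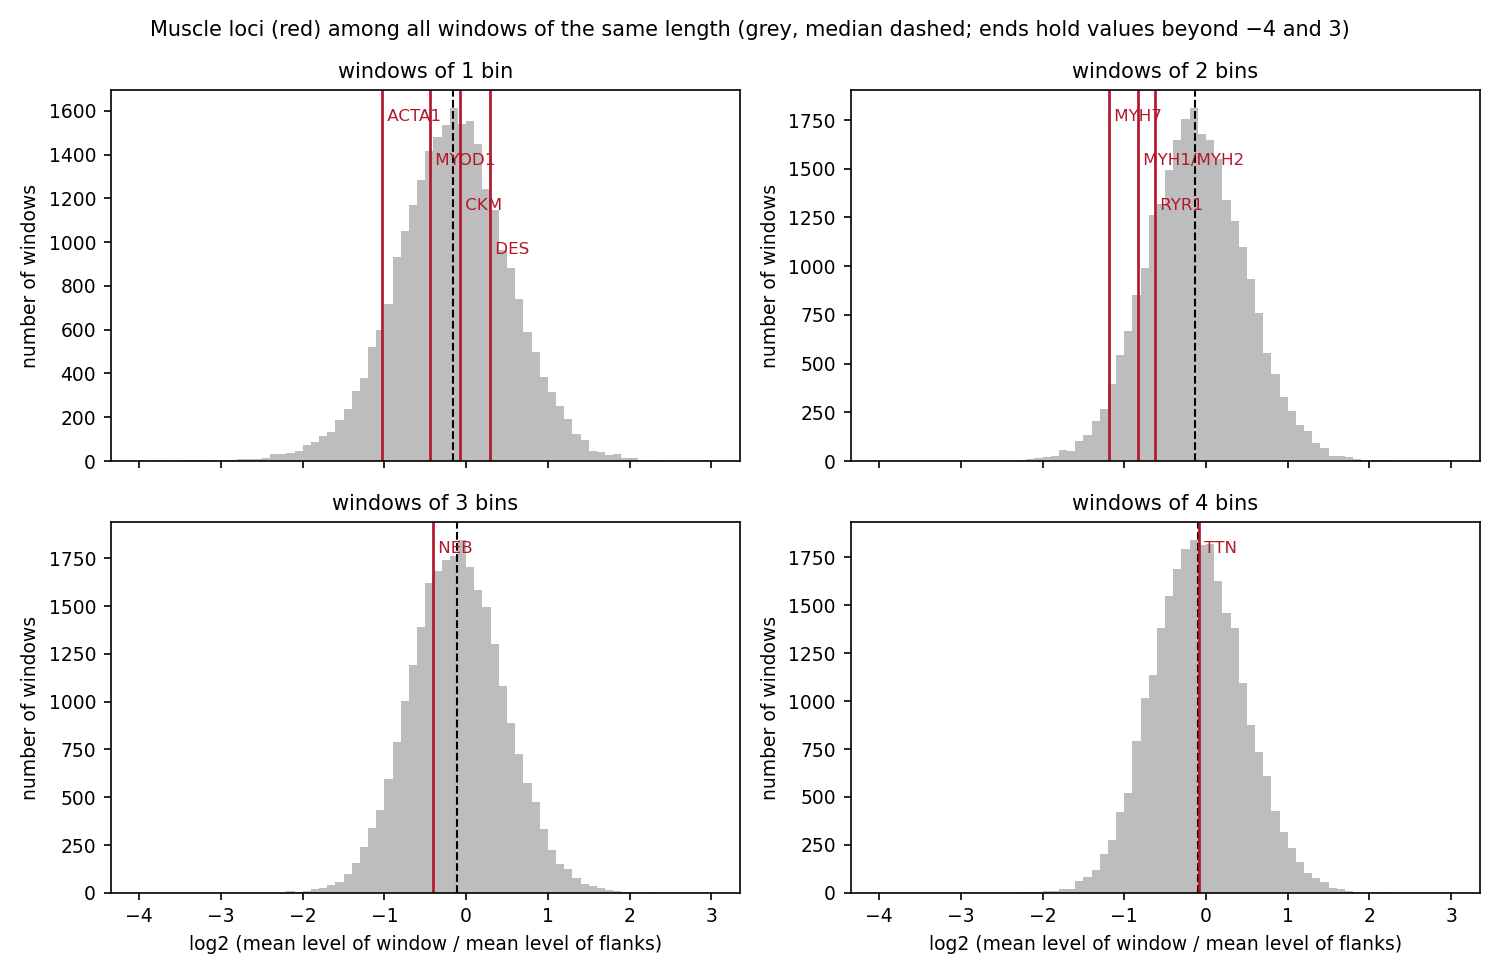
Log2 ratio of mean level to mean flank level for all windows of 1 to 4 bins, grey histograms with the median dashed, and for the muscle loci of the same length, red lines. MYH7 at -1.19 and ACTA1 at -1.03 lie in the lower tail, TTN and CKM near the median and DES at 0.29 above it.

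Among the filament genes, ACTA1, the actin of skeletal muscle thin filaments, lay in a single low bin inside a higher neighbourhood. The bin, chr1:229500001-229600000 (hg19), holds the whole gene, whose span was taken as 20 kb. Its level ran from 0 to 2.94 in cell 12 with a median of 0.623, and it had no count in 10 of 26 cells. Its flanks were between 0.614 and 2.32 with a median of 1.58. The means were 0.734 ± 0.798 and 1.5 ± 0.442, a 2.04-fold difference and a log2 ratio of -1.03, which is at the 10.2nd percentile of 1-bin windows. The 4 cells above their flanks were 1, 2, 6 and 12, of which cell 1 is the most deeply sequenced. By summed counts the gap was smaller: 54 counts gave a summed level of 0.967 (0.727 to 1.26) against 1.46 for the flanks, a ratio of 0.664 (0.497 to 0.871). In the 13 cells of highest total the log2 ratio was -0.38 and 10 cells were below, under the 11 needed, so the difference was smaller in the deeper cells.

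Both bins that touch the ACTA1 bin were high. Before it lies a bin with a level of 2.66 ± 2.02 and after it one with 2.46 ± 2.1. ACTA1 was below their mean in 24 of 26 cells. By summed counts these bins stood at 2.33 (1.96 to 2.74) and 2.31 (1.95 to 2.72), intervals that do not overlap that of the ACTA1 bin. In RefSeq's gene order the nearest protein-coding genes are CCSAP and NUP133, the latter a gene of the nuclear pore.

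NEB encodes nebulin, a giant protein that runs along the thin filament. Its 3 bins (chr2:152300001-152600000) had a level from 0 in 4 cells to 1.49 in cell 18, with a median of 0.743. In the flanks the level ran from 0.433 to 1.64 with a median of 0.920. NEB was below its flanks in 17 of 26 cells, at 0.715 ± 0.500 against 0.95 ± 0.254, and was placed on neither side. The interval of its summed ratio, 0.864 (0.728 to 1.02), included 1. The surroundings rose across the gene: the flank on the side of lower coordinates averaged 0.744 ± 0.482 and the other 1.16 ± 0.286. NEB was below the first in 13 cells and below the second in 21.

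TTN, which encodes the elastic giant titin, spans 4 bins (chr2:179300001-179700000) and was close to its surroundings. Every cell had a count, with levels from 0.293 in cell 10 to 1.47 in cell 26 and a median of 0.656. Its flanks ran from 0.299 to 1.3 with a median of 0.756. The means, 0.738 ± 0.356 and 0.781 ± 0.272, differ by -0.0433 ± 0.388, which is within the spread. The log2 ratio of -0.08 is at the 51.4th percentile of 4-bin windows. Without the 6 cells of lowest total it was -0.30 and 16 of 20 cells were below, which meets the limit for that number of cells.

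The mean over TTN hides a step inside the gene. From low to high coordinates its bins had levels of 0.881 ± 0.815, 1.14 ± 0.993, 0.430 ± 0.542 and 0.500 ± 0.518. The first 2 together averaged 1.01 ± 0.574 and the last 2 averaged 0.465 ± 0.348, with the first pair higher in 20 of 26 cells. By summed counts the second bin stood at 1.05 (0.861 to 1.28, 104 counts) and the third at 0.454 (0.291 to 0.675, 24 counts), intervals that do not overlap. TTN is read from the minus strand, so the bins with the higher levels hold its 3′ end and those with the lower levels hold its start. The first bin holds only 10 kb of the gene's span and continues towards PLEKHA3. The highest flank bin lies on that side too, at chr2:179100001-179200000 with 2.04 ± 1.08. After the gene, towards CCDC141, the next bin was at 0.498 ± 0.643, close to the last TTN bins. The step was examined after the values were seen. Other neighbouring bins near TTN differed as much. By summed counts the highest flank bin stood at 2.08 (1.76 to 2.44) and the bin before it at 1.07 (0.808 to 1.40). The share of neighbouring bins in the genome that differ in this way was not computed, so whether the step is particular to TTN was not tested.

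**Figure D3:**
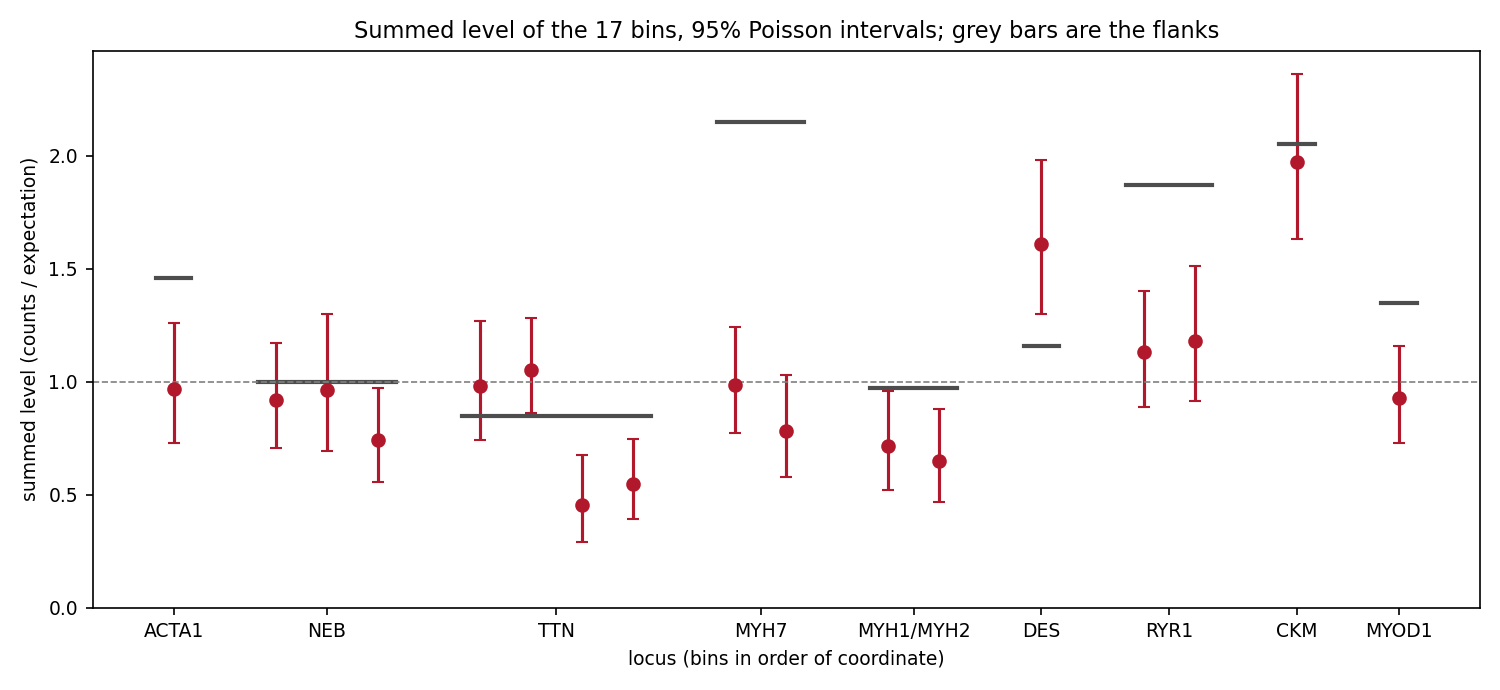
Summed level (counts over expectation, all 26 cells) of the 17 bins of the muscle loci, red points with exact 95% Poisson intervals, and of the flanks of each locus, grey bars. Within TTN the second bin is at 1.05 and the third at 0.454, while both MYH7 bins and both RYR1 bins are below their flanks.

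Of the motor genes, MYH7, the slow myosin heavy chain of heart and type I fibres, stood lowest against its flanks of all 9 loci. It lies beside MYH6, its cardiac partner, in chr14:23800001-24000000. The span taken for MYH7 covers only 20 kb of the first of these 2 bins and 10 kb of the second. The values are for the whole bins. The level of the locus ran from 0 in 2 cells to 2.42 in cell 20, with a median of 0.880. The flanks, a highly marked neighbourhood, ran from 0.736 to 5.05 with a median of 1.99. Only cell 20 had the locus above its flanks, at 2.42 against 1.56. The means were 0.939 ± 0.645 and 2.15 ± 0.781, which is 2.29-fold lower and a log2 ratio of -1.19, at the 3.57th percentile of 2-bin windows. By summed counts the ratio was 0.414 (0.343 to 0.496) from 123 counts. Cell 1 had 4 counts there, a level of 0.239 against 1.98 in the flanks.

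MYH7 was therefore a low stretch in a high region, and not low in itself: its level was at the 57.6th percentile of all 2-bin windows and its chromosome 14 averaged 0.992. Of 2-bin windows with a flank level of 1.3 or more, 20.4% were placed below their flanks, against 16.1% of all 2-bin windows. That split was chosen after the values were seen. The flanks of MYH7 averaged 2.15, and the share among windows with flanks as high was not computed. The flanks themselves were uneven: the bin after the locus was at 2.69 ± 2.89, and the lowest flank bin, chr14:24200001-24300000, was 0.2 Mb beyond the locus at 0.559 ± 0.729, below MYH7 itself. The highest, chr14:22900001-23000000, was at 3.86 ± 3.11.

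MYH1 and MYH2, the fast myosins of type IIx and IIa fibres, had the lowest mean level of the 9 loci over all 26 cells. In the 13 cells of highest total the level was 0.842 ± 0.670, above TTN at 0.718 and MYH7 at 0.791, and the log2 ratio to the flanks was -0.24 with 8 of 13 cells below. They stand in a row of myosin genes that RefSeq's gene order gives as MYH13, MYH8, MYH4, MYH1, MYH2 and MYH3. The 2 bins, chr17:10300001-10500000, had levels from 0 in 7 cells to 2.61 in cell 9, with a median of 0.491. The span taken for the 2 genes covers 10 kb of the first bin and 60 kb of the second. The flanks were between 0.448 and 1.67 with a median of 0.947. The locus was below its flanks in 20 of 26 cells, at 0.555 ± 0.583 against 0.984 ± 0.290, a log2 ratio of -0.83 at the 12.0th percentile. The summed ratio was 0.702 (0.558 to 0.873) from 87 counts. Myosin genes of this row are similar in sequence. The sources used here do not say how reads that fit several copies were handled. The expectation of the 2 bins was 1.09 and 1.12 times the median. How it was built is not given, and the part of such reads in the level was not tested.

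The myosin row sits where a higher region gives way to a lower one. The side of lower coordinates averaged 1.24 ± 0.398 and the other 0.727 ± 0.321. The locus was below the first in 23 cells and below the second in 19. MYH7 was above MYH1/MYH2 by 0.384 ± 0.883, in 17 of 26 cells with 1 tie, which is within the spread between cells.

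DES, the muscle intermediate filament gene, was the only locus of the 9 with a higher mean level than its flanks. Its bin, chr2:220200001-220300000, had levels from 0 in 7 cells to 3.70 in cell 14, with a median of 1.38, and 14 of 26 cells were at 1 or more. The span taken for DES covers 20 kb of it. The level of the flanks ran from 0.293 to 2.03 with a median of 1.14. DES was above its flanks in 14 cells and below in 12, at 1.40 ± 1.26 against 1.15 ± 0.359, and was placed on neither side. The log2 ratio of 0.29 is at the 75.0th percentile of 1-bin windows. By summed counts DES was higher than the flanks, with a ratio of 1.38 (1.11 to 1.71) from 92 counts. The share of windows with an interval above 1 was not computed. The region falls across the gene. The side of lower coordinates averaged 1.53 ± 0.587 and the other 0.776 ± 0.338, and DES was below the first in 15 cells and below the second in 11. The nearest genes in RefSeq's order are DNPEP and SPEG, the latter also a muscle gene.

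Of the 2 loci on chromosome 19, RYR1, the calcium release channel of skeletal muscle, was below its flanks in 20 cells, 1 short of the limit, and CKM in 15. RYR1 covers 2 bins, chr19:38900001-39100000, with levels from 0 in cell 23 to 3.38 in cell 16 and a median of 0.906. Its flanks ran from 0.429 to 5.08 with a median of 1.67. The means over the 26 cells were 1.18 ± 0.809 and 1.84 ± 0.840, a log2 ratio of -0.63 at the 19.9th percentile. The summed ratio was 0.615 (0.515 to 0.730) from 142 counts. In the 13 cells of highest total the log2 ratio was -0.76, with 11 of 13 cells below.

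The bins that touch RYR1 were high, at 2.47 ± 2.50 before it and 2.88 ± 1.70 after it. RYR1 was below their mean in 23 of 26 cells. Its own 2 bins were alike, at 1.10 ± 0.656 and 1.27 ± 1.25, and the gene's span covers 80 kb of each. Its neighbours in RefSeq's order are RASGRP4 and MAP4K1, genes known from blood cells.

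CKM, whose product regenerates ATP in working muscle, shared the high level of its region. Its bin, chr19:45800001-45900000, had levels from 0 in 3 cells to 5.39 in cell 16, with a median of 1.73, and 21 of 26 cells were at 1 or more. The flanks ran from 0.292 to 4.93 with a median of 1.80. CKM was above its flanks in 11 cells, and the means of 1.88 ± 1.22 and 1.97 ± 0.906 did not differ beyond the spread. The summed ratio was 0.960 (0.790 to 1.16). The bin after it, chr19:45900001-46000000, was the highest of its flanks at 3.23 ± 1.94. Between the neighbours MARK4 and KLC3, the span taken for CKM covers 30 kb of its 100 kb bin. CKM was above RYR1 by 0.701 ± 1.00, in 19 of 26 cells.

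MYOD1, the regulator, was near the average of the genome. Its bin, chr11:17700001-17800000, had levels from 0 in 6 cells to 3.92 in cell 26, with a median of 0.651. The span taken for MYOD1 covers 10 kb of it. The flanks ran from 0.740 to 2.20 with a median of 1.29. MYOD1 was below them in 18 of 26 cells, at 0.987 ± 1.00 against 1.33 ± 0.397, and was placed on neither side. The log2 ratio of -0.44 is at the 34.1st percentile of 1-bin windows. The summed ratio was 0.688 (0.537 to 0.869) from 74 counts. With flanks of 2 Mb the log2 ratio was 0.01. MYOD1 did not stand apart from the bins that touch it: these were at 0.754 ± 0.808 and 1.07 ± 1.08, and it was below their mean in 15 cells.

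**Figure D4:**
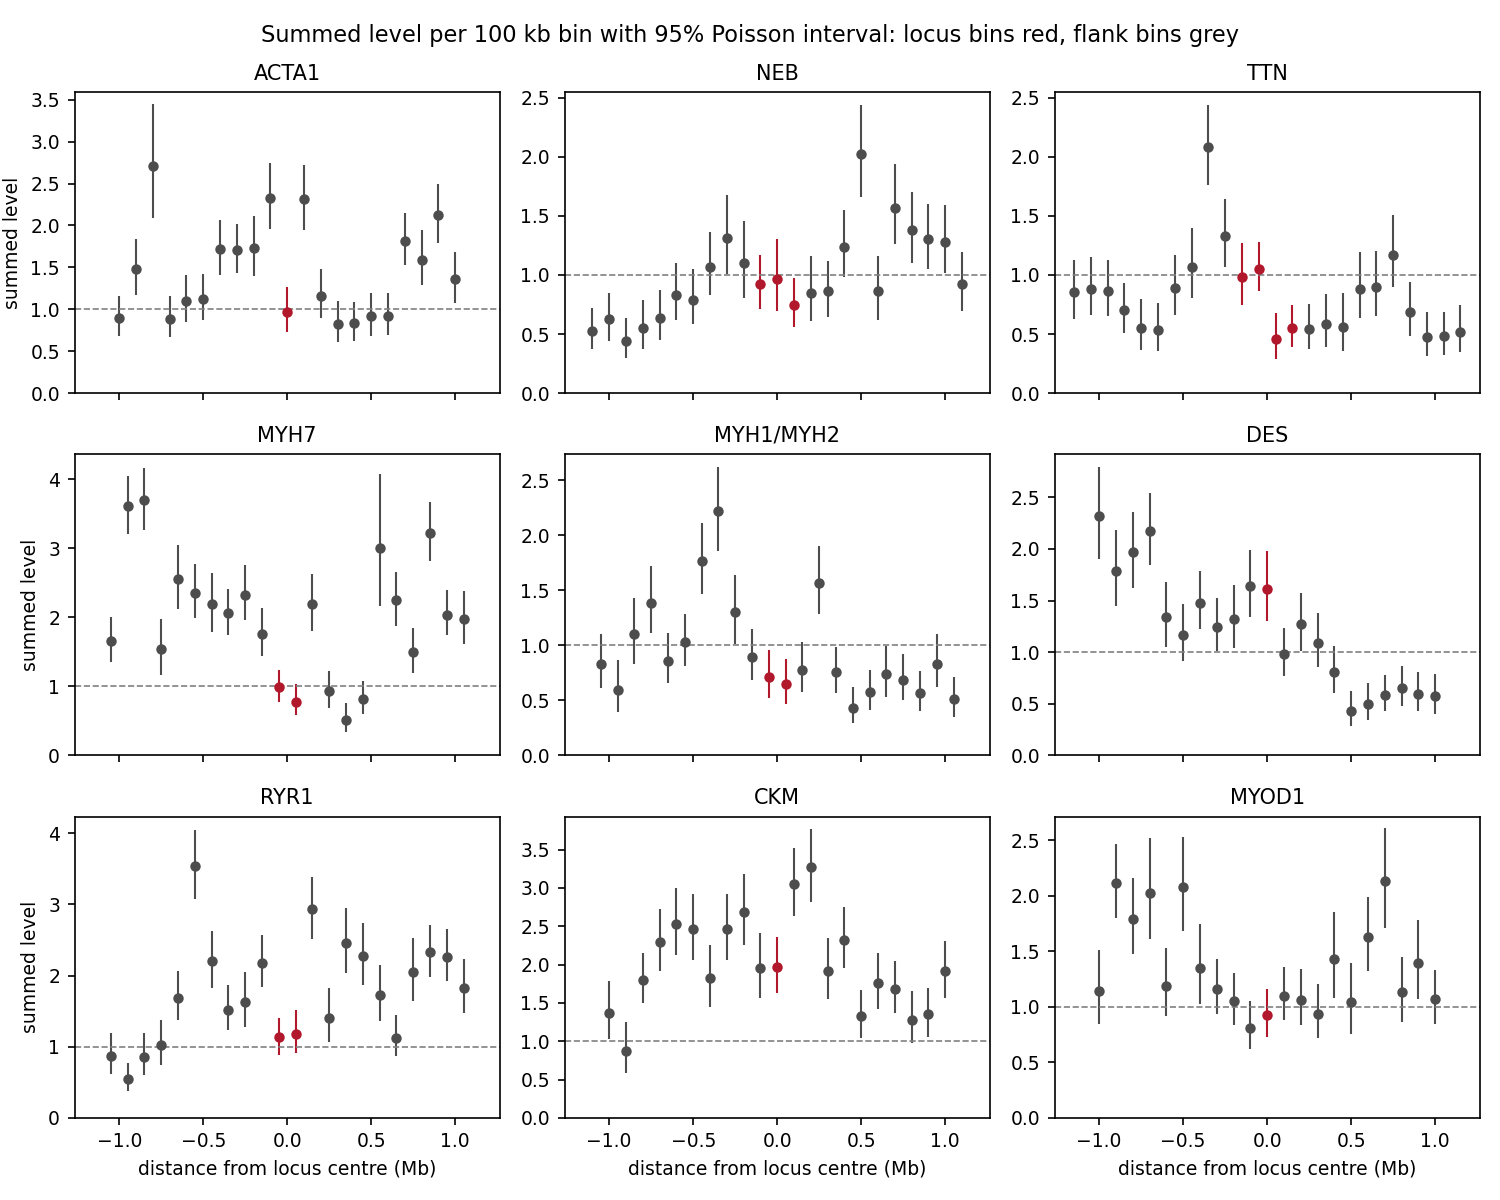
Summed level of each 100 kb bin within 1 Mb of the 9 loci, with exact 95% Poisson intervals, against distance from the locus centre in Mb; locus bins are red and flank bins grey. ACTA1, MYH7 and RYR1 dip between higher neighbours, DES lies on a falling slope and TTN on a step.

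The profiles around the loci led to a narrower comparison, chosen after the values were seen, of each locus with the mean of the bins that touch it on each side. ACTA1, RYR1 and MYH7 were below that mean in 24, 23 and 21 of 26 cells, and no locus was above it in 21. These 3 of 9 compare with 2.25% of all windows of the same lengths, or 2.16%, 2.20%, 2.40% and 2.65% of windows of 1, 2, 3 and 4 bins. The 1 Mb flanks of ACTA1, RYR1 and MYH7 averaged 1.5, 1.84 and 2.15. The share among windows with flanks as high was not computed for this comparison. By summed counts the same 3 loci had an interval below those of both adjacent bins, which held for 1.59% of windows, or 1.65%, 1.48%, 1.58% and 1.65% by length. The interval for MYH7, 0.891 (0.741 to 1.06), compares with 1.76 (1.44 to 2.13) before it and 2.19 (1.80 to 2.63) after it. That for RYR1, 1.15 (0.970 to 1.36), compares with 2.18 (1.84 to 2.57) and 2.93 (2.52 to 3.39). The same 3 loci were named in the 13 cells of highest total, but ACTA1 alone when every cell was thinned to 20000 counts. They were also named when any 1 cell was left out. The limit is then 20 cells, which a locus below in 21 or more always meets. MYH7 dropped out with a limit of 23 cells and when only the bin with the largest part of each gene was used, and MYH1/MYH2 was added with a limit of 18 cells. GC content, GATC density and DNA copy number were not analysed, and their part in these differences was not tested.

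Cells differed in which loci were low. Between 4 and 8 of the 9 loci were below their flanks in a cell, with a median of 7, and no cell had all 9 below. Cells 2 and 6 had 4. Windows of the genome were often below their flanks too: the median window was below in 15 to 17 of the 26 cells, depending on its length. The number below per cell was not computed for other sets of 9 windows. Whether a median of 7 is particular to the muscle loci was therefore not tested. Cell 16 had the highest mean difference over the 9 loci, 0.397. Both chromosome 19 loci enter that mean, with differences of 3.62 at CKM and 1.82 at RYR1. Their levels in cell 16, 5.39 and 3.38, were the highest of all cells, against flanks of 1.77 and 1.56. The largest gap at MYH7 was in cell 10, whose flanks there were the highest, 5.05. That cell had 25222 counts, or 0.958 per bin.

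**Figure D5:**
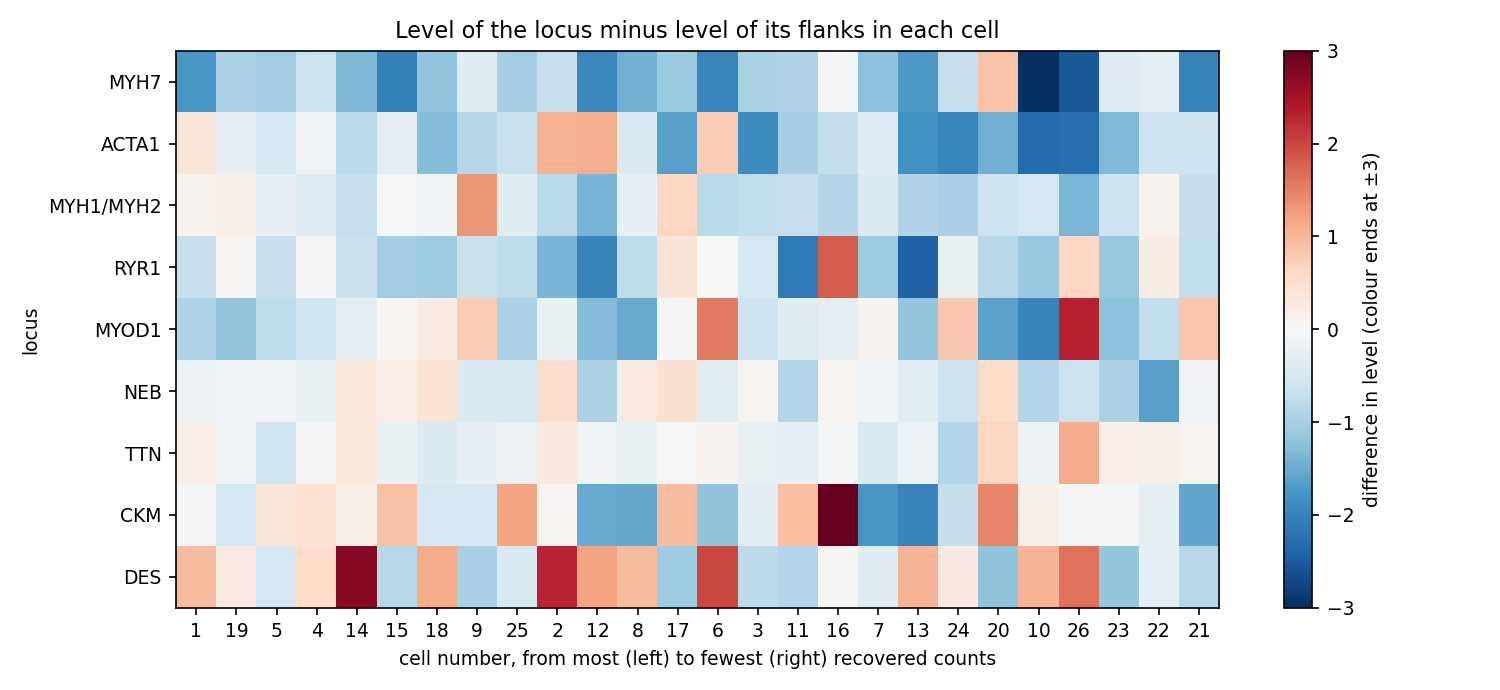
Level of each locus minus that of its flanks in each of the 26 cells, with cells ordered by recovered counts and loci by their log2 ratio; blue is below the flanks and red above. MYH7 is blue in 25 of 26 cells, while DES is mixed at 12 below and 14 above.

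The spread between cells was like that of other bins. The chi-square of the counts of a bin against the depth of the cells, per degree of freedom, had a median of 1.63 over the 23011 bins with at least 20 counts, where counting alone gives about 1. The 17 bins of the muscle loci ran from 1.02 to 2.27, and 9 of them were above that median. The steadiest was the first bin of RYR1 at 1.02, with a count in 24 of 26 cells. The most variable were the MYOD1 bin and the first MYH1/MYH2 bin, both at 2.27. The first MYH1/MYH2 bin had a count in 13 cells, one of which, cell 9, had the highest level of the locus.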

How the data were processed

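The deposited table gives, per the file headers, 26 single-cell columns over 30376 bins of 100 kb. Its values are a ratio, read as observed over expected from the authors' file name. The submitters' processing notes name cutadapt, Bowtie2 2.1.0 and hg19. The sources used here do not give how reads were counted, bins masked or the expectation built. Bins without a value (3792) or 0 in all cells (253) were left out. Every column was matched to 1 sample by number, and no pair of cells was identical.

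Ratios were divided by the cell mean. Whole counts and a relative expectation were recovered from them (largest distance from a whole number 2.42e-13, tolerance 0.001). Windows used as background for flanks had at least 10 flank bins that were not left out. Those used for adjacent bins had the bin on each side. The procedure was tested on simulated counts. The members, lists and alternatives were chosen with earlier results of these data known, all 10 members are named, and genes other than these were not placed because no hg19 annotation was used. Gene order is from RefSeq (GRCh38.p14). Computation used scipy 1.17.1, pandas 2.3.3 and numpy 2.4.6 under Python 3.11.15, and plots matplotlib 3.10.9.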

Additional observations from a re-analysis of the deposited data

How the results depend on the processing

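Of 199 recomputed values, 172 stayed on the same side of the limit, within 1.5 times for numbers of loci, or within 1 SD for summed counts. Of these, 9 are log2 ratios of summed counts, which give no number of cells. For them the difference of locus and flanks had to stay within 1 SD of its spread between cells. For ACTA1 and MYH7 its sign had to stay too. A locus on neither side counted as unchanged even where its log2 ratio changed sign. The 172 also include the number of loci above their flanks, which was 0 in all 15 of its alternatives. The total therefore says little about any single result. The number of loci below their flanks stayed within its limit in 9 of 15. The 54 recomputed levels were compared apart, and all 54 stayed within 1 SD. MYH7 had a log2 ratio below 0 under all 16 of its alternatives (-1.32 to -0.65) and was below wherever cells were counted, and DES was above 0 in all (0.24 to 0.77). Loci below their flanks numbered 4 with flanks of 0.5 Mb, without the 6 cells of lowest total (limit 16 cells) and without cell 22 (limit 20 cells). They numbered 5 with a limit of 18 cells, and 1 with a limit of 23 cells or the median of flank bins. The background was 39.4% of windows at 18 cells, 6.24% at 23, 11.1% with 0.5 Mb and 21.7% with 2 Mb. With cells left out and with the median of flank bins it was not computed. ACTA1 lost its side with flanks of 2 Mb (-0.82), the median of flank bins (-0.64), a limit of 23 cells (-1.03) and in the 13 cells of highest total (-0.38). MYH1/MYH2 came below with flanks of 0.5 Mb (-1.09) and 2 Mb (-0.86), without cell 22 (-0.86), with the bin of the largest gene part (-0.96) and at 18 cells (-0.83). RYR1 did with flanks of 0.5 Mb (-0.91), without the 6 cells (-0.61), without cell 22 (-0.65), at 18 cells (-0.63), in the 13 cells (-0.76) and against adjacent bins (-1.18), MYOD1 at 18 cells (-0.44) and TTN without the 6 cells (-0.30). The mean of the 9 loci lost its side with flanks of 2 Mb (-0.28), the median of flank bins (-0.14) and thinning (-0.42). Loci below their adjacent bins numbered 1 with thinned counts. The cause was not tested. TTN, CKM, NEB and MYOD1 changed the sign of their log2 ratio in some settings, TTN up to 0.47. Adjacent bins and the 13 cells were chosen after the data were seen. No paired analysis was possible because the cells form 1 group, with no samples to pair between groups. Locus and flanks were compared within each cell throughout.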
